A study of Homo sapiens with 42 samples.

Results

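The pancreatic cancer cell line MiaPaCa-2 was compared between a high and a low concentration of simvastatin. The members are 6 of the 42 libraries of the series, taken by their labels: 3 libraries of MiaPaCa-2 cells given 20 µM simvastatin and 3 of MiaPaCa-2 cells given 2 µM simvastatin. No untreated library enters this comparison, so each difference is between 2 doses of 1 drug and not a change from untreated cells. The whole series holds MiaPaCa-2 and PANC-1 cells, both established human pancreatic carcinoma lines, as controls or with simvastatin, lovastatin or fluvastatin at 20 or 2 µM, in 14 groups of 3 libraries by the labels. All groups share DMEM with fetal bovine serum, and polyadenylated RNA was selected with poly-T beads for paired-end sequencing. The labels state neither the length of the treatment nor the solvent. Nothing says that the 3 libraries of a dose came from separate cultures, so p-values measure the spread between these libraries, which may be technical.

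Simvastatin blocks the synthesis of mevalonate. Mevalonate is the precursor of cholesterol and of the farnesyl and geranylgeranyl lipids that anchor small GTPases in membranes. When sterols run low in a cell, the transcription factor SREBP2 raises the mRNA of the enzymes of the pathway, and loss of prenyl lipids disturbs GTPase signalling, the actin cytoskeleton and growth.

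The authors deposited log2 FPKM values (FPKM is the number of fragments per unit of transcript length, scaled to the mapped total of the library) for 8738 genes. They are read here as log2(FPKM + 1), since none is at or below 0, and the text gives FPKM for levels and that log2 scale for differences. A log2 difference is 20 minus 2 µM, and it understates the change of genes with low values. Depth is unknown, since no counts were used. The 6 libraries had medians of 4.37 to 4.40 on the log2 scale. Pearson correlations across genes were 0.988 to 0.9885 among the 20 µM libraries, 0.9861 to 0.9882 among the 2 µM libraries and 0.881 to 0.8855 between the doses. None of the 6 stood apart from its group. In each of the 6 libraries, at least 97.1% of the values recur in 5 or more columns, as after scaling to one shared distribution. A level therefore follows the rank of the gene in its library. The medians, and the balance of genes called higher and lower, cannot be told apart from that scale. The top gene of each of the 6 libraries has 1 of 2 shared values, 6990.2 or 5950.4 FPKM. The lowest value of each library, 0.0532 to 0.0872 FPKM, was held by 119 to 177 genes and is called the lowest listed value below.

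The line was checked against markers. Vimentin (VIM), the mesenchymal intermediate filament, averaged 3636 ± 308 FPKM at 20 µM and 3188 ± 0 FPKM at 2 µM (SD, n = 3 each, here and below). The simple epithelial keratins KRT8, KRT18 and KRT19 averaged 299, 224 and 225 FPKM at 20 µM and 359, 331 and 235 FPKM at 2 µM. MUC1, also an epithelial and ductal marker, averaged 19.14 ± 4.719 FPKM at 20 µM and 850.6 ± 71.85 FPKM at 2 µM (log2 difference -5.42). E-cadherin (CDH1) averaged 0.845 ± 1.15 FPKM at 20 µM and 0.635 ± 0.191 FPKM at 2 µM, EPCAM 1.201 ± 0.6702 FPKM at 20 µM and 1.01 ± 0.9804 FPKM at 2 µM and N-cadherin (CDH2) 0.254 ± 0.335 FPKM at 20 µM and 0.204 ± 0.221 FPKM at 2 µM, levels too low to be tested. Of the fibroblast markers, COL1A2 averaged 29.5 ± 6.51 FPKM at 20 µM and 142 ± 8.48 FPKM at 2 µM (log2 difference -2.25, SE 0.13, adjusted p = 5.2e-10). COL1A1 averaged 1.28 ± 0.461 FPKM at 20 µM and 0.752 ± 0.148 FPKM at 2 µM, and THY1 0.412 ± 0.319 FPKM at 20 µM and 0.0685 ± 0.0173 FPKM at 2 µM. The leukocyte marker CD14 averaged 1.93 ± 0.4401 FPKM at 20 µM and 3.85 ± 1.37 FPKM at 2 µM, and the endothelial marker endomucin (EMCN) 6.11 ± 3.33 FPKM at 20 µM and 22.7 ± 10.9 FPKM at 2 µM. Of the 2 leukocyte markers tested, CD14 was called lower, and the other, not called, had a log2 difference of 0.46. The 2 together summed to 32.9 to 44.5 FPKM at 20 µM and 26.2 to 36.4 FPKM at 2 µM. EMCN was lower at 20 µM (log2 difference -1.75, SE 0.44, adjusted p = 0.0025), as COL1A2 was, and the part of these markers in other differences was not tested.

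The 2 doses gave different profiles for most of the table. Of 8425 genes tested with limma, 5908 were called at an adjusted p under 0.05, which is 70.1%. There were 3005 higher at 20 µM (35.7%) and 2903 lower (34.5%). At a difference of at least 2-fold, 963 genes were higher (11.4%) and 1170 lower (13.9%). At least 4-fold, 133 were higher and 241 lower, and at least 8-fold, 32 were higher and 56 lower. The median log2 difference over all genes tested was 0.03. The 3 libraries at 20 µM did not overlap the 3 at 2 µM for 6126 genes (72.7%). Of the 2517 genes not called, 2307 had a 95% interval that lay within a 2-fold difference, and 210 had one that reached it. The share called is high in this table, so each gene list below is read against 35.7% higher and 34.5% lower. Named members of a list were mostly picked for large called differences, so their lack of overlap partly follows from that choice. It is read against the 72.7% over all genes tested.

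The genes with the largest rise were of several kinds. FAM25A had 74.4, 82.3 and 81.97 FPKM at 20 µM, against 1.203, 0.0872 and 0.0532 FPKM at 2 µM (log2 difference 5.89, SE 0.41, adjusted p = 8.0e-09), and 2 of its 3 libraries at 2 µM were at the lowest listed value. KRT16, a keratin of stressed and dividing epithelium, had 169.8, 156 and 164 FPKM at 20 µM, against 3.07, 3.32 and 3.38 FPKM at 2 µM (log2 difference 5.27, SE 0.12, adjusted p = 2.1e-14). The transcription factor ATF3, induced by many stresses, had 314, 308 and 319 FPKM at 20 µM, against 12.5, 11.8 and 15.1 FPKM at 2 µM (log2 difference 4.48, SE 0.14, adjusted p = 6.1e-13). In each of these genes the 3 libraries at 20 µM stood close together and far above all 3 at 2 µM. They were chosen among genes whose doses do not overlap. CD55, which protects cells from complement, averaged 179 ± 2.08 FPKM at 20 µM and 9.55 ± 1.14 FPKM at 2 µM (log2 difference 4.10). TSC22D3, known as the glucocorticoid-induced leucine zipper, averaged 126 ± 2.42 FPKM at 20 µM and 7.14 ± 2.096 FPKM at 2 µM (log2 difference 3.99). S100P, a calcium-binding protein often made by pancreatic carcinoma, averaged 43.8 ± 2.37 FPKM at 20 µM and 1.28 ± 0.624 FPKM at 2 µM (log2 difference 4.34). The others among the 12 largest were NDRG4, SHISA4, FAM129A, SLFN5, WIPI1 and MICALL1, with log2 differences of 3.81 to 4.36.

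The largest falls were in genes of glycolysis and of the low-oxygen response and in the membrane mucin MUC1. Aldolase C (ALDOC), a glycolytic enzyme, had 2.91, 4.001 and 2.404 FPKM at 20 µM, against 204, 229 and 214 FPKM at 2 µM (log2 difference -5.74, SE 0.17, adjusted p = 2.6e-13). MUC1, a mucin of the epithelial surface, had 15.3, 17.7 and 24.4 FPKM at 20 µM, against 776, 855 and 920.0 FPKM at 2 µM (log2 difference -5.42, SE 0.21, adjusted p = 9.5e-12). The glucose transporter SLC2A3 had 2.09, 3.12 and 3.45 FPKM at 20 µM, against 109.6, 98.9 and 90.3 FPKM at 2 µM (log2 difference -4.71, SE 0.27, adjusted p = 6.1e-10). No library of either dose came near the other dose in these 3 genes, which were also chosen among genes without overlap. HILPDA, a lipid droplet protein induced by low oxygen, averaged 7.86 ± 0.23 FPKM at 20 µM and 200.3 ± 11.1 FPKM at 2 µM (log2 difference -4.50). The adaptor DOK3 averaged 2.56 ± 1.13 FPKM at 20 µM and 58.2 ± 4.04 FPKM at 2 µM (log2 difference -4.11), the mitochondrial protein FAM162A 35.8 ± 5.25 FPKM at 20 µM and 588 ± 24.8 FPKM at 2 µM (log2 difference -4.01), and TM4SF18 16.1 ± 3.66 FPKM at 20 µM and 236 ± 10.1 FPKM at 2 µM (log2 difference -3.82).

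**Figure D1:**
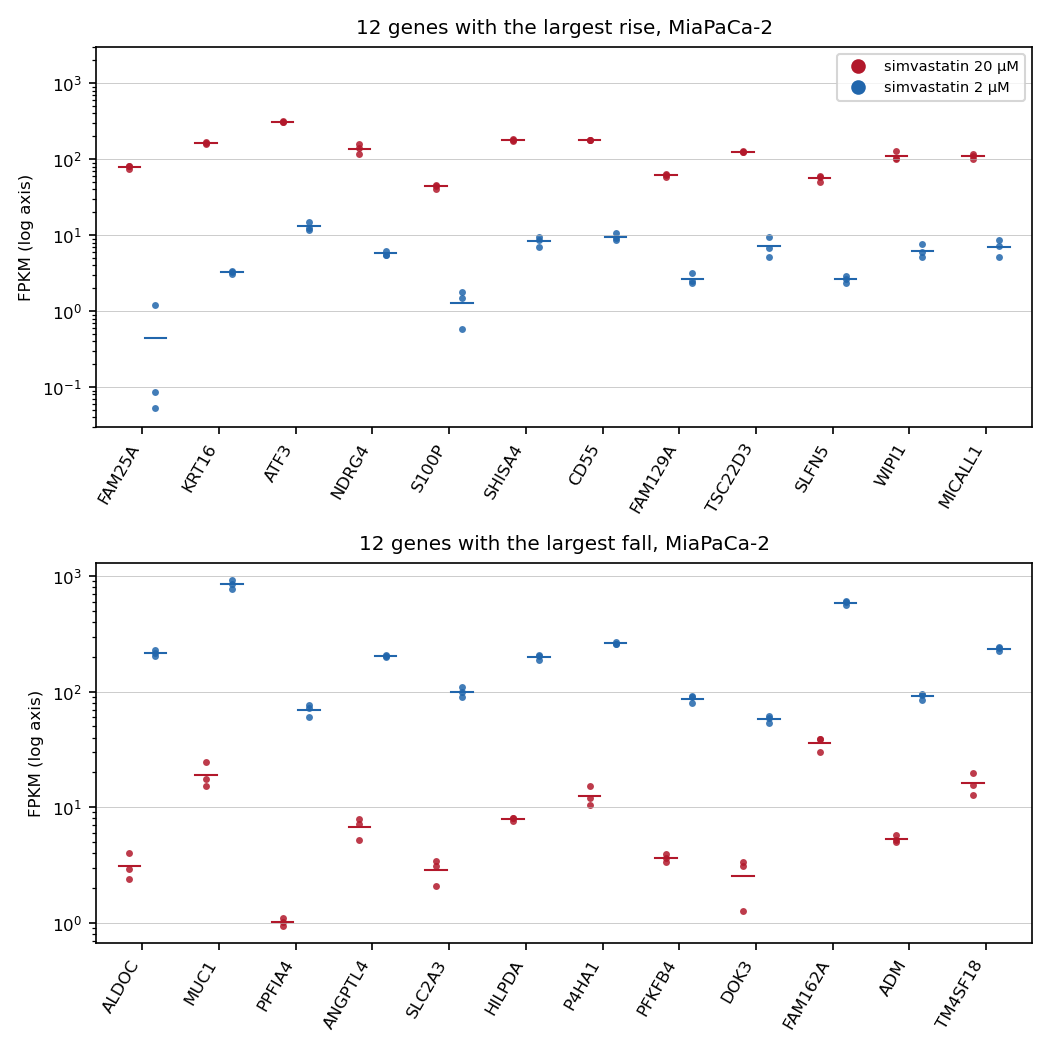
FPKM of the 12 genes with the largest rise (upper panel) and the 12 with the largest fall (lower panel) in MiaPaCa-2 cells, among called genes whose groups do not overlap and that average at least 5 FPKM in the group where they are higher. Each point is a library (20 µM left, red; 2 µM right, blue), bars are means of 3 libraries, and the vertical axis is logarithmic. The gap between the doses in every gene follows from the choice of genes without overlap.

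The most abundant mRNAs called at 2-fold or more included ferritin and glycolytic enzymes. Ferritin light chain (FTL), which stores iron, had 6990.2, 6990.2 and 6990.2 FPKM at 20 µM, against 2933, 2764 and 3010.1 FPKM at 2 µM. It was the top gene of all 3 libraries at 20 µM, so its level there is the shared top value, and its log2 difference of 1.27 is limited by it. Its processed pseudogene FTLP3, which shares sequence with it so that reads may be split between them, had a log2 difference of 1.35. The translation factor EIF1 averaged 1644 ± 43.3 FPKM at 20 µM and 587 ± 5.78 FPKM at 2 µM (log2 difference 1.48). GAPDH, the glycolytic dehydrogenase often used to scale expression, had 1907, 2013 and 1834 FPKM at 20 µM, against 6990.2, 5950.4 and 6990.2 FPKM at 2 µM. It was the top gene of all 3 libraries at 2 µM, so its log2 difference of -1.79 is limited in the same way. The 3 GAPDH values at 20 µM were all below the 3 at 2 µM by a wide margin.

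The mevalonate and cholesterol enzymes, the pathway that the drug blocks, differed unevenly between the doses. There were 11 higher and 3 lower of 21 genes tested, with a median log2 difference of 0.47. HMGCS1, a synthase early in the pathway, had 63.6, 63.7 and 62.8 FPKM at 20 µM, against 17.8, 18.4 and 19.4 FPKM at 2 µM (log2 difference 1.72, SE 0.12, adjusted p = 4.6e-09). Mevalonate kinase (MVK), which phosphorylates mevalonate, had 18.3, 19.9 and 15.3 FPKM at 20 µM, against 4.4, 4.04 and 3.26 FPKM at 2 µM (log2 difference 1.94, SE 0.20, adjusted p = 5.4e-07). For both enzymes every library at 20 µM was above every library at 2 µM. The late cholesterol enzyme DHCR7 averaged 121 ± 14.1 FPKM at 20 µM and 36.5 ± 8.63 FPKM at 2 µM (log2 difference 1.72). The squalene synthase FDFT1 averaged 169.9 ± 10 FPKM at 20 µM and 56.6 ± 6.16 FPKM at 2 µM (log2 difference 1.57). The farnesyl diphosphate synthase FDPS, named after its value was seen, averaged 119 ± 12.6 FPKM at 20 µM and 107 ± 6.04 FPKM at 2 µM, and no difference was called (log2 difference 0.14, 95% interval -0.13 to 0.41, adjusted p = 0.33). At the lower end, HSD17B7, also named after its value was seen, averaged 6.25 ± 1.05 FPKM at 20 µM and 15.4 ± 4.62 FPKM at 2 µM (log2 difference -1.15, SE 0.20, adjusted p = 1.5e-04). The list made up 0.197%, 0.211% and 0.2003% of the summed FPKM of the table at 20 µM, against 0.126%, 0.123% and 0.129% at 2 µM.

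**Figure D2:**
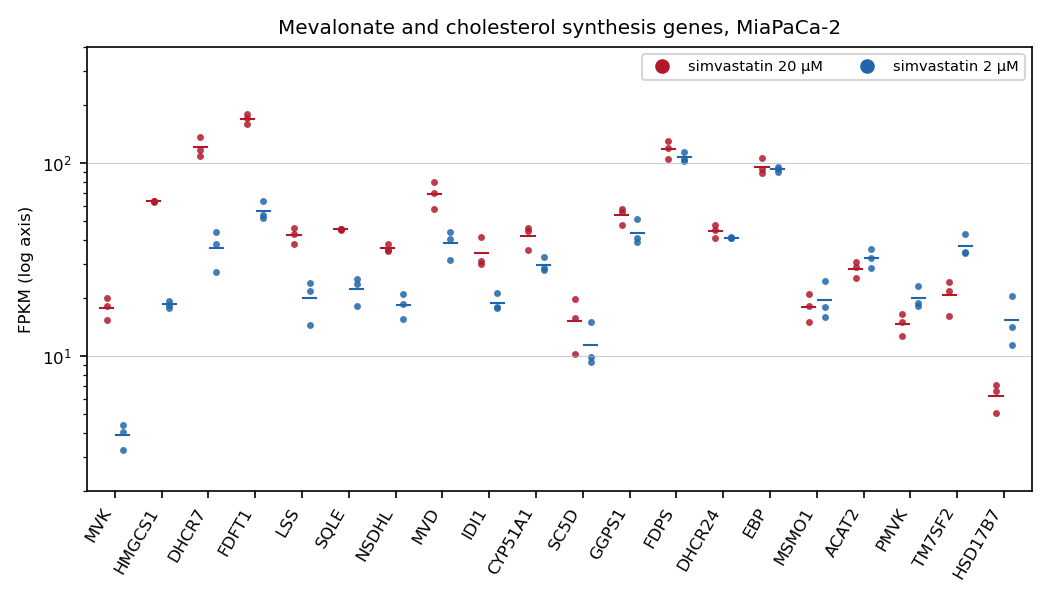
FPKM of 20 of the 21 genes of mevalonate and cholesterol synthesis in MiaPaCa-2 cells, ordered by log2 difference from MVK (1.94) to HSD17B7 (-1.15). Each point is a library (20 µM left, red; 2 µM right, blue), bars are means of 3 libraries, and the vertical axis is logarithmic.

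Regulators of sterol balance and lipoprotein receptors split both ways, with 6 higher and 8 lower of 16 genes tested, with a median log2 difference of -0.15. SREBF2, which encodes SREBP2, averaged 65.4 ± 7.36 FPKM at 20 µM and 21.6 ± 1.297 FPKM at 2 µM (log2 difference 1.55), while SREBF1, named after its value was seen, had a log2 difference of -0.56. NPC1, which exports cholesterol from lysosomes, averaged 64.03 ± 11.5 FPKM at 20 µM and 19.5 ± 3.79 FPKM at 2 µM (log2 difference 1.67). The 2 INSIG genes, whose proteins hold SREBP in the endoplasmic reticulum, went in opposite directions. INSIG1 had 81.3, 62.9 and 86.9 FPKM at 20 µM, against 31.5, 34.7 and 29.2 FPKM at 2 µM (log2 difference 1.24, SE 0.13, adjusted p = 5.0e-07). INSIG2 had 12.8, 18.7 and 14.5 FPKM at 20 µM, against 86.7, 76.8 and 91.8 FPKM at 2 µM (log2 difference -2.41, SE 0.29, adjusted p = 2.7e-06), and neither gene overlapped between doses. The HDL receptor SCARB1 averaged 18.7 ± 3.28 FPKM at 20 µM and 41.4 ± 5.62 FPKM at 2 µM (log2 difference -1.11). In fatty acid synthesis there were 7 higher and 4 lower of 14 genes tested, with a median log2 difference of 0.43. The desaturase FADS1 averaged 40.5 ± 5.57 FPKM at 20 µM and 13.6 ± 5.84 FPKM at 2 µM (log2 difference 1.58) and the synthase FASN 101 ± 4.84 FPKM at 20 µM and 67.6 ± 0.827 FPKM at 2 µM (log2 difference 0.57), while the stearoyl desaturase SCD averaged 203 ± 0.453 FPKM at 20 µM and 284 ± 6.81 FPKM at 2 µM (log2 difference -0.48).

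The enzymes that make and attach prenyl lipids gave 3 higher and 5 lower of 11 genes tested, with a median log2 difference of -0.52. PDSS2 and COQ2, which build the prenyl tail of coenzyme Q and join it to its ring, fell by 1.90 and 1.16 on the log2 scale. CHML, which escorts Rab proteins to geranylgeranylation, fell by 1.07. DHDDS, an enzyme of dolichol synthesis, rose by 1.00. The shared alpha subunit of farnesyl and geranylgeranyl transferase I, FNTA, averaged 92.2 ± 13.7 FPKM at 20 µM and 83.4 ± 14.3 FPKM at 2 µM, and no difference was called (log2 difference 0.15, 95% interval -0.20 to 0.50, adjusted p = 0.43).

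Several small GTPases, which are clients of prenylation, differed between the doses. RHOB, a short-lived endosomal GTPase, had 357, 362 and 342 FPKM at 20 µM, against 27.1, 27.1 and 26.7 FPKM at 2 µM (log2 difference 3.66, SE 0.06, adjusted p = 4.8e-16). RHOA, which drives actin stress fibres, had 799, 849 and 855 FPKM at 20 µM, against 335, 351 and 361 FPKM at 2 µM (log2 difference 1.25, SE 0.05, adjusted p = 6.0e-12). RHOU had 13.5, 13.2 and 14.9 FPKM at 20 µM, against 2.46, 1.96 and 2.26 FPKM at 2 µM (log2 difference 2.21, SE 0.12, adjusted p = 3.2e-10). The 3 genes were higher in every library at 20 µM than in any at 2 µM. The exchange factor ARHGEF2 and the GTPase RHOQ had log2 differences of 1.75 and 1.54. CDC42, which directs filopodia and polarity, averaged 63.3 ± 3.41 FPKM at 20 µM and 95.95 ± 4.87 FPKM at 2 µM (log2 difference -0.59), and ECT2, the exchange factor of cell division, 27.7 ± 4.46 FPKM at 20 µM and 73.2 ± 3.27 FPKM at 2 µM (log2 difference -1.38).

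The genes of actin, which respond to the coactivators of SRF, gave 8 higher and 13 lower of 25 genes tested, with a median log2 difference of -0.11. Vinculin (VCL), which links adhesions to actin, had 25.9, 28.5 and 35.2 FPKM at 20 µM, against 102, 119 and 108 FPKM at 2 µM (log2 difference -1.85, SE 0.10, adjusted p = 3.7e-10). Beta-actin (ACTB) had 1298, 1285 and 1270.3 FPKM at 20 µM, against 2764, 2422 and 2422 FPKM at 2 µM (log2 difference -0.98, SE 0.05, adjusted p = 9.1e-11). All 3 libraries at 20 µM were below all 3 at 2 µM for both genes. The myosin light chain MYL9 averaged 9.11 ± 1.08 FPKM at 20 µM and 34.7 ± 2.94 FPKM at 2 µM (log2 difference -1.82). MKL1, an SRF coactivator, averaged 18.5 ± 3.68 FPKM at 20 µM and 6.05 ± 0.841 FPKM at 2 µM (log2 difference 1.46), and calponin CNN1 2.02 ± 0.676 FPKM at 20 µM and 0.219 ± 0.247 FPKM at 2 µM (log2 difference 1.30). Genes driven by YAP and TAZ gave 3 higher and 6 lower of 16 genes tested, with a median log2 difference of -0.31. NT5E, the surface enzyme CD73, averaged 29.6 ± 7.19 FPKM at 20 µM and 106 ± 6.36 FPKM at 2 µM (log2 difference -1.84), and AMOTL2 14.3 ± 3.22 FPKM at 20 µM and 30.01 ± 3.61 FPKM at 2 µM (log2 difference -1.04). The matricellular gene CTGF averaged 1.76 ± 0.0796 FPKM at 20 µM and 1.39 ± 0.485 FPKM at 2 µM, and no difference was called (log2 difference 0.23, 95% interval -0.17 to 0.64, adjusted p = 0.29). GADD45A, which stands in this list and in that of growth arrest, averaged 261 ± 8.09 FPKM at 20 µM and 30.96 ± 4.804 FPKM at 2 µM (log2 difference 3.05).

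The Kruppel-like factors, zinc finger regulators of growth and endothelial state that statins are known to raise in vascular cells, gave 7 higher and 1 lower of 9 genes tested, with a median log2 difference of 1.19. KLF4 had 76.6, 72.6 and 76.5 FPKM at 20 µM, against 9.12, 5.86 and 7.54 FPKM at 2 µM (log2 difference 3.18, SE 0.14, adjusted p = 3.6e-11). KLF6 had 501, 494 and 492 FPKM at 20 µM, against 82.6, 78.8 and 82.96 FPKM at 2 µM (log2 difference 2.59, SE 0.07, adjusted p = 1.0e-13). KLF2 had 299, 319 and 318 FPKM at 20 µM, against 65.3, 73.04 and 70.1 FPKM at 2 µM (log2 difference 2.15, SE 0.07, adjusted p = 9.3e-13). The lowest library at 20 µM was above the highest at 2 µM for each factor. Genes fed by MAPK signalling and genes of AP-1 gave 10 higher and 6 lower of 25 genes tested, with a median log2 difference of -0.11. FOS averaged 39.2 ± 1.81 FPKM at 20 µM and 12.2 ± 7.77 FPKM at 2 µM (log2 difference 1.76), JUN 165 ± 4.54 FPKM at 20 µM and 67.8 ± 2.005 FPKM at 2 µM (log2 difference 1.27), and the MAPK phosphatase DUSP1 59.2 ± 5.09 FPKM at 20 µM and 16.1 ± 1.14 FPKM at 2 µM (log2 difference 1.81). The feedback inhibitors of receptor signalling SPRY1 and SPRY4 and the ETS factor ETV4 fell by 2.91, 1.66 and 1.97 on the log2 scale. DUSP6, the ERK phosphatase, averaged 3.25 ± 1.22 FPKM at 20 µM and 4.11 ± 2.69 FPKM at 2 µM, and no difference was called (log2 difference -0.19, 95% interval -1.13 to 0.75, adjusted p = 0.72).

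Proliferation genes were lower at 20 µM with few exceptions. In the mitosis list there were 0 higher and 35 lower of 35 genes tested, with a median log2 difference of -1.64, so every gene of the list was called lower. SPC24 and NUF2, subunits of the NDC80 complex that ties chromosomes to the spindle, were the most reduced. SPC24 had 1.35, 0.893 and 1.58 FPKM at 20 µM, against 21.1, 35.8 and 23.3 FPKM at 2 µM (log2 difference -3.58, SE 0.29, adjusted p = 3.4e-08). NUF2 had 5.37, 3.98 and 5.68 FPKM at 20 µM, against 65.7, 60.01 and 48.4 FPKM at 2 µM (log2 difference -3.30, SE 0.18, adjusted p = 5.1e-10). TOP2A, which untangles DNA before division, had 22.1, 16.4 and 21.5 FPKM at 20 µM, against 145, 138 and 133 FPKM at 2 µM (log2 difference -2.74, SE 0.11, adjusted p = 1.1e-11). The groups did not overlap for these genes, which was so for 72.7% of all genes tested. The kinase PLK1 averaged 15.7 ± 5.71 FPKM at 20 µM and 56.3 ± 3.45 FPKM at 2 µM (log2 difference -1.84), the kinase PBK 10.97 ± 4.29 FPKM at 20 µM and 106 ± 6.602 FPKM at 2 µM (log2 difference -3.22), and the motor KIF20A 6.31 ± 2.23 FPKM at 20 µM and 55.6 ± 6.98 FPKM at 2 µM (log2 difference -2.99). The list made up 0.149%, 0.137% and 0.144% of the summed FPKM of the table at 20 µM, against 0.409%, 0.411% and 0.39% at 2 µM.

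The promoter of NUF2 is printed because it has the largest fall among mitosis genes with a single start-site window that holds the letters TTTGAA, the core of the element known as CHR in cell cycle promoters. The windows of RefSeq (GRCh38.p14) run from 250 bases before to 50 bases after the annotated start, with 1 window used for each gene, and letters were searched on both strands. Windows were found for 6079 of the 8425 genes tested. TTTGAA was in 21 of the 29 mitosis genes with a window (72.4%), in 9.18% of the genes tested and in 15.4% of all 27305 windows. CCAAT was in 23 of the 29 (79.3%), in 36.5% of the genes tested and in 35.7% of all windows. The window of NUF2 is chr1:163321704-163322003 on the plus strand, written 5′ to 3′ with TTTGAA in capitals. A match describes the letters and is not evidence of binding.
NUF2: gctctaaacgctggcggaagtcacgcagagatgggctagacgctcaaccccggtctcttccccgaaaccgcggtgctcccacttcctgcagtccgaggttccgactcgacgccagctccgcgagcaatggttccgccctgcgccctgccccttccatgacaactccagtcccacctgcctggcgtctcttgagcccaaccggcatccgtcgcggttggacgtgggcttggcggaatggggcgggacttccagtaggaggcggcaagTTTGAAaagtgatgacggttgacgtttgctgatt

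Genes of DNA replication gave 1 higher and 30 lower of 34 genes tested, with a median log2 difference of -1.30. GINS4 and GINS2 of the replicative helicase fell by 2.91 and 2.22 on the log2 scale, and the origin subunit ORC1 by 2.13. The clamp PCNA had 52.8, 48.7 and 44.8 FPKM at 20 µM, against 113, 110.2 and 121 FPKM at 2 µM (log2 difference -1.22, SE 0.08, adjusted p = 5.3e-09). The helicase subunit MCM2 had 14.5, 17.7 and 13.7 FPKM at 20 µM, against 51.1, 52.4 and 51.7 FPKM at 2 µM (log2 difference -1.70, SE 0.13, adjusted p = 1.9e-08). Neither overlapped between the doses. The single gene called higher was GINS3, named here after its value was seen (log2 difference 0.78). The genes that supply deoxynucleotides gave 3 higher and 9 lower of 14 genes tested, with a median log2 difference of -0.95. RRM2, the regulated subunit of ribonucleotide reductase, had 19.1, 23.4 and 29.7 FPKM at 20 µM, against 326, 298 and 306 FPKM at 2 µM (log2 difference -3.65, SE 0.17, adjusted p = 8.1e-11). Thymidine kinase TK1 averaged 15.2 ± 1.23 FPKM at 20 µM and 139 ± 8.05 FPKM at 2 µM (log2 difference -3.11), and thymidylate synthase TYMS 38.8 ± 3.84 FPKM at 20 µM and 180.5 ± 13.1 FPKM at 2 µM (log2 difference -2.19).

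Cyclins and genes of cell cycle transitions gave 0 higher and 21 lower of 27 genes tested, with a median log2 difference of -1.35. CDK1, the kinase of mitotic entry, had 14.2, 28.6 and 20.4 FPKM at 20 µM, against 164, 126 and 161 FPKM at 2 µM (log2 difference -2.82, SE 0.27, adjusted p = 2.7e-07). Cyclin A2 (CCNA2) had 6.68, 6.15 and 6.98 FPKM at 20 µM, against 37.9, 44.5 and 42.8 FPKM at 2 µM (log2 difference -2.49, SE 0.16, adjusted p = 3.9e-09). Cyclin D1 (CCND1), which answers growth signals, had 19.3, 17.2 and 26.5 FPKM at 20 µM, against 50.4, 47.6 and 63.8 FPKM at 2 µM (log2 difference -1.33, SE 0.18, adjusted p = 8.2e-06). All 3 were lower in every library at 20 µM. The 2 cyclin E genes differed from each other: CCNE2 averaged 1.87 ± 0.404 FPKM at 20 µM and 14.6 ± 5.49 FPKM at 2 µM (log2 difference -2.40), and CCNE1 averaged 13.4 ± 1.99 FPKM at 20 µM and 14.2 ± 0.778 FPKM at 2 µM, where no difference was called (log2 difference -0.09, 95% interval -0.42 to 0.23, adjusted p = 0.6). Inhibitors of the cell cycle and targets of p53 gave 13 higher and 4 lower of 20 genes tested, with a median log2 difference of 0.63. CDKN1A, which encodes p21, had 33.05, 36.7 and 38.2 FPKM at 20 µM, against 6.38, 6.23 and 6.797 FPKM at 2 µM (log2 difference 2.31, SE 0.10, adjusted p = 2.1e-11). CDKN1B, which encodes p27, averaged 38.97 ± 5.39 FPKM at 20 µM and 37.99 ± 4.27 FPKM at 2 µM, and no difference was called (log2 difference 0.03, 95% interval -0.25 to 0.32, adjusted p = 0.83). GADD45B averaged 121 ± 13.2 FPKM at 20 µM and 14.6 ± 5.197 FPKM at 2 µM (log2 difference 3.02), and PHLDA3, an inhibitor of AKT, 54.2 ± 2.64 FPKM at 20 µM and 6.91 ± 0.912 FPKM at 2 µM (log2 difference 2.81). The mRNAs of histones that carry a poly-A tail gave 9 higher and 3 lower of 12 genes tested, with a median log2 difference of 1.01. Their summed share of the FPKM of the table was lower, with 0.1132%, 0.1165% and 0.1158% at 20 µM, against 0.1286%, 0.1372% and 0.1234% at 2 µM. HIST1H4H averaged 19.8 ± 7.37 FPKM at 20 µM and 2.995 ± 1.83 FPKM at 2 µM (log2 difference 2.43), and the variant H2AFZ 144 ± 5.67 FPKM at 20 µM and 285 ± 31.5 FPKM at 2 µM (log2 difference -0.97). Histone genes are near copies of each other, so reads may be split between them.

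Genes of the BCL2 family and of cell death gave 7 higher and 3 lower of 17 genes tested, with a median log2 difference of 0.20. BBC3, the gene of the cell death activator PUMA, had 71.3, 69.6 and 65.1 FPKM at 20 µM, against 12.1, 10.9 and 10.9 FPKM at 2 µM (log2 difference 2.50, SE 0.10, adjusted p = 1.8e-11). PMAIP1, which encodes NOXA, averaged 30.6 ± 2.21 FPKM at 20 µM and 11.3 ± 0.959 FPKM at 2 µM (log2 difference 1.37), and BCL2L11, which encodes BIM, 21.7 ± 1.95 FPKM at 20 µM and 12.6 ± 0.642 FPKM at 2 µM (log2 difference 0.73). The survival gene MCL1 averaged 121 ± 9.296 FPKM at 20 µM and 159 ± 0.788 FPKM at 2 µM (log2 difference -0.39), and the initiator caspase gene CASP8 44.5 ± 9.31 FPKM at 20 µM and 109.9 ± 19.1 FPKM at 2 µM (log2 difference -1.29). Of the genes named here, BBC3, PMAIP1 and BCL2L11 were higher, and MCL1 and the caspase gene CASP8 were lower at 20 µM. Over all genes tested 35.7% were higher and 34.5% lower.

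The integrated stress response, in which phosphorylation of eIF2-alpha raises translation of the factor ATF4, gave 19 higher and 1 lower of 20 genes tested, with a median log2 difference of 1.89. The member called lower was VLDLR, named after its value was seen (log2 difference -0.96). ATF4 itself had 545, 518 and 521 FPKM at 20 µM, against 131, 131 and 132 FPKM at 2 µM (log2 difference 2.00, SE 0.04, adjusted p = 9.6e-15). TRIB3, a pseudokinase induced by ATF4, had 155, 149 and 149 FPKM at 20 µM, against 16.7, 16.9 and 18.6 FPKM at 2 µM (log2 difference 3.05, SE 0.08, adjusted p = 1.6e-13). DDIT3, which encodes CHOP, had 167, 168 and 167 FPKM at 20 µM, against 54.5, 44.9 and 55.1 FPKM at 2 µM (log2 difference 1.69, SE 0.09, adjusted p = 3.7e-10). Each was higher in all 3 libraries at 20 µM. PPP1R15A, which encodes the eIF2 phosphatase subunit GADD34, averaged 148 ± 2.23 FPKM at 20 µM and 18.9 ± 0.837 FPKM at 2 µM (log2 difference 2.90), and CEBPB 109 ± 7.25 FPKM at 20 µM and 14.9 ± 0.723 FPKM at 2 µM (log2 difference 2.79). The list made up 0.4805%, 0.478% and 0.4802% of the summed FPKM of the table at 20 µM, against 0.152%, 0.146% and 0.158% at 2 µM.

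CHAC1, which breaks down glutathione, is the most changed gene of this list with a single window that holds TGATGNAAN, a form of the composite element of C/EBP and ATF4. It averaged 27.5 ± 2.28 FPKM at 20 µM and 6.83 ± 0.439 FPKM at 2 µM (log2 difference 1.86, SE 0.14, adjusted p = 1.4e-08). These letters were in 3 of 16 windows of the stress response list (18.8%), in 4 of 13 of the amino acid list (30.8%), in 1.51% of the genes tested and in 3.67% of all windows. The window of CHAC1 is chr15:40953221-40953520 on the plus strand (GRCh38.p14), with the match, which reads on the opposite strand, in capitals.
CHAC1: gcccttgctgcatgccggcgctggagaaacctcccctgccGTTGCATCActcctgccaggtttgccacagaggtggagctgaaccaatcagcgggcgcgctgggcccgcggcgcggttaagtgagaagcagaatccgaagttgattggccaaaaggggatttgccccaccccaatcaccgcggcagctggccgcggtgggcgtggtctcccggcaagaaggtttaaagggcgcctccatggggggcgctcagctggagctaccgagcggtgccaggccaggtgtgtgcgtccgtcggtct

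Amino acid synthesis, amino acid uptake and tRNA charging gave 25 higher and 2 lower of 30 genes tested, with a median log2 difference of 0.77. The cystine transporter SLC7A11 had 24.6, 23.2 and 15.8 FPKM at 20 µM, against 2.85, 2.48 and 2.76 FPKM at 2 µM (log2 difference 2.56, SE 0.27, adjusted p = 7.8e-07). Its partner chain SLC3A2 had 863, 776 and 903 FPKM at 20 µM, against 221, 194 and 199 FPKM at 2 µM (log2 difference 2.04, SE 0.10, adjusted p = 1.2e-10). SARS, the seryl-tRNA synthetase, had 359.9, 375 and 388 FPKM at 20 µM, against 101, 99.3 and 108 FPKM at 2 µM (log2 difference 1.85, SE 0.06, adjusted p = 8.5e-13). The doses did not overlap for any of the 3. The neutral amino acid transporter SLC1A4 and the aspartate aminotransferase GOT1 had log2 differences of 2.14 and 1.84. PHGDH, the first enzyme of serine synthesis, averaged 83.4 ± 1.42 FPKM at 20 µM and 52.4 ± 4.37 FPKM at 2 µM (log2 difference 0.66).

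The chaperones of the endoplasmic reticulum moved in both directions, with 10 higher and 6 lower of 20 genes tested, with a median log2 difference of 0.54. Their summed share of the FPKM of the table was lower, with 0.5676%, 0.5816% and 0.5676% at 20 µM, against 0.6623%, 0.6807% and 0.671% at 2 µM. XBP1, a transcription factor of the unfolded protein response, had 266, 289 and 282 FPKM at 20 µM, against 49.8, 53.3 and 53.3 FPKM at 2 µM (log2 difference 2.40, SE 0.06, adjusted p = 4.2e-14). DNAJB9 averaged 56.4 ± 6.36 FPKM at 20 µM and 10.2 ± 1.36 FPKM at 2 µM (log2 difference 2.36), and the main chaperone HSPA5, also called BiP, 452 ± 7.92 FPKM at 20 µM and 212 ± 2.59 FPKM at 2 µM (log2 difference 1.09). ERO1L, the oxidase that forms disulfide bonds, had 72.2, 59.2 and 58.8 FPKM at 20 µM, against 510.0, 548 and 512 FPKM at 2 µM (log2 difference -3.03, SE 0.13, adjusted p = 3.4e-11). XBP1 was higher and ERO1L lower in every library at 20 µM. Cytosolic chaperones gave 12 higher and 3 lower of 18 genes tested, with a median log2 difference of 0.48. The small heat shock protein HSPB1 averaged 863 ± 14.7 FPKM at 20 µM and 370.2 ± 5.83 FPKM at 2 µM (log2 difference 1.22), and the co-chaperone BAG3 47.2 ± 1.97 FPKM at 20 µM and 25.5 ± 2.31 FPKM at 2 µM (log2 difference 0.86). HSPE1, the mitochondrial co-chaperonin in this list, averaged 122 ± 6.83 FPKM at 20 µM and 264 ± 17.8 FPKM at 2 µM (log2 difference -1.10).

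The low-oxygen response had the lowest median of the 34 lists. It gave 3 higher and 23 lower of 27 genes tested, with a median log2 difference of -2.25. ANGPTL4, an inhibitor of lipoprotein lipase, had 7.85, 5.16 and 7.197 FPKM at 20 µM, against 205, 199 and 208 FPKM at 2 µM (log2 difference -4.74, SE 0.15, adjusted p = 6.6e-13). P4HA1, a collagen prolyl hydroxylase, had 10.5, 15.1 and 12.03 FPKM at 20 µM, against 269, 261 and 261 FPKM at 2 µM (log2 difference -4.30, SE 0.12, adjusted p = 1.4e-13). Adrenomedullin (ADM), a vasodilator peptide, had 4.96, 5.73 and 5.17 FPKM at 20 µM, against 92.7, 84.4 and 95.8 FPKM at 2 µM (log2 difference -3.87, SE 0.14, adjusted p = 4.6e-12). All 3 were lower in every library at 20 µM. VEGFA, the vascular growth factor, went the other way and had 230.4, 230.0 and 230.4 FPKM at 20 µM, against 154, 159 and 174 FPKM at 2 µM (log2 difference 0.50, SE 0.07, adjusted p = 2.6e-05). Its doses did not overlap either, and it also stands in the stress response list. The list made up 0.211%, 0.211% and 0.212% of the summed FPKM of the table at 20 µM, against 0.538%, 0.539% and 0.534% at 2 µM.

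Genes of glucose uptake and glycolysis gave 1 higher and 22 lower of 25 genes tested, with a median log2 difference of -1.82. The list took up 1.21%, 1.16% and 1.12% of the summed FPKM of the table at 20 µM, against 4.56%, 4.301% and 4.65% at 2 µM. LDHA, which makes lactate, had 485, 264 and 382 FPKM at 20 µM, against 1976, 2477 and 2323 FPKM at 2 µM (log2 difference -2.62, SE 0.23, adjusted p = 9.4e-08). PGK1 had 474, 483 and 429.8 FPKM at 20 µM, against 4598, 4256 and 4598 FPKM at 2 µM (log2 difference -3.28, SE 0.05, adjusted p = 2.6e-16). PFKFB4, which sets the level of an activator of phosphofructokinase, had 3.67, 3.33 and 3.95 FPKM at 20 µM, against 91.9, 80.1 and 89.2 FPKM at 2 µM (log2 difference -4.24, SE 0.17, adjusted p = 8.3e-12). All libraries at 20 µM were below all at 2 µM in these genes. The ubiquitous glucose transporter SLC2A1 averaged 118 ± 3.77 FPKM at 20 µM and 185 ± 7.06 FPKM at 2 µM (log2 difference -0.65). Aldolase A (ALDOA) and enolase 1 (ENO1), 2 of the most abundant mRNAs of the line, averaged 1394 ± 87.1 FPKM at 20 µM and 5028 ± 372 FPKM at 2 µM, and 938 ± 9.02 FPKM at 20 µM and 1965 ± 41.6 FPKM at 2 µM. PDK3, a kinase that holds pyruvate back from the mitochondria, had a log2 difference of -3.15. The single gene called higher was PFKFB2, named after its value was seen (log2 difference 1.37).

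The promoters of ALDOC and PPFIA4 are printed because these were the most reduced genes of the glycolysis and low-oxygen lists. ALDOC is shown with its values above. PPFIA4, a liprin known to respond to low oxygen, had 1.01, 0.945 and 1.098 FPKM at 20 µM, against 71.5, 77.2 and 60.3 FPKM at 2 µM (log2 difference -5.12, SE 0.16, adjusted p = 6.6e-13). The letters ACGTG or GCGTG, the core that hypoxia-inducible factors bind, were in 18 of 21 windows of the low-oxygen list (85.7%) and 16 of 23 of the glycolysis list (69.6%). They were in 65.4% of the genes tested and in 48.4% of all windows, so the core is common. It is also part of the E-box CACGTG, where it is found on both strands. The windows (GRCh38.p14) are chr17:28576846-28577145 on the minus strand for ALDOC, with 5 matches, and chr1:203026241-203026540 on the plus strand for PPFIA4, with 3 matches. Capitals mark the core on either strand.
ALDOC: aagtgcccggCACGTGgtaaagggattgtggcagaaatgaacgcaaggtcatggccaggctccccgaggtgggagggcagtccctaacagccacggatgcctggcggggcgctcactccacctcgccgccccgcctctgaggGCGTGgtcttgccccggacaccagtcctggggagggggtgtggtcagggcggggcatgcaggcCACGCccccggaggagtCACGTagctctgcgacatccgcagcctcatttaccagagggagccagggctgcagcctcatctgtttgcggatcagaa
PPFIA4: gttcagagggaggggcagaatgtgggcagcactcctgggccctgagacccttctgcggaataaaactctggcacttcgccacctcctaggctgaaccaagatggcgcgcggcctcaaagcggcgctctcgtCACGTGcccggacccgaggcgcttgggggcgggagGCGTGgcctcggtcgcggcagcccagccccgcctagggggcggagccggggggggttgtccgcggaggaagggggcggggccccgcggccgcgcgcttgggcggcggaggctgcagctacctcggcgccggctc

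Nuclear genes of the respiratory chain were lower by small amounts, with 2 higher and 27 lower of 32 genes tested, with a median log2 difference of -0.44. The ATP synthase genes ATP5C1 and ATP5G1 had log2 differences of -1.01 and -0.98, and NDUFB8 of complex I -0.82. Cytochrome c (CYCS) averaged 79.9 ± 6.16 FPKM at 20 µM and 72.3 ± 5.59 FPKM at 2 µM, and no difference was called (log2 difference 0.14, 95% interval -0.01 to 0.30, adjusted p = 0.09). With 1 replicate left out 1 to 2 were called higher. The 2 genes called higher were COX5A and SDHB, named after their values were seen, at 0.35 and 0.26.

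Targets of NRF2, the transcription factor of oxidative stress, gave 18 higher and 3 lower of 22 genes tested, with a median log2 difference of 1.10. HMOX1, the haem oxygenase, had 343, 350.1 and 351 FPKM at 20 µM, against 29.7, 30.5 and 30.3 FPKM at 2 µM (log2 difference 3.49, SE 0.10, adjusted p = 3.1e-13). GCLC, the catalytic subunit that starts glutathione synthesis, had 178, 128 and 134 FPKM at 20 µM, against 14.9, 14.03 and 9.28 FPKM at 2 µM (log2 difference 3.43, SE 0.22, adjusted p = 2.4e-09). NQO1, a quinone reductase and common marker of NRF2 activity, had 532, 538 and 518 FPKM at 20 µM, against 693, 697 and 671 FPKM at 2 µM (log2 difference -0.38, SE 0.03, adjusted p = 1.4e-07). HMOX1 and GCLC were higher and NQO1 lower in every library at 20 µM. AKR1C1 and AKR1C2, near-identical aldo-keto reductases between which reads may be split, had log2 differences of 2.96 and 1.94. The 3 genes called lower were NQO1, GCLM and PRDX1, of which the last 2 were named after their values were seen. The list made up 2.26%, 2.24% and 2.24% of the summed FPKM of the table at 20 µM, against 1.21%, 1.18% and 1.21% at 2 µM.

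Genes of autophagy gave 20 higher and 1 lower of 23 genes tested, with a median log2 difference of 0.79. With 1 replicate left out, 0 to 1 were called lower. WIPI1, which helps form the autophagosome, had 102, 128 and 104 FPKM at 20 µM, against 7.56, 5.14 and 6.08 FPKM at 2 µM (log2 difference 3.96, SE 0.29, adjusted p = 1.5e-08). SQSTM1, the cargo receptor p62, had 1719, 1719 and 1756 FPKM at 20 µM, against 467, 494 and 505 FPKM at 2 µM (log2 difference 1.82, SE 0.07, adjusted p = 2.9e-12). GABARAPL1 had 205, 213 and 198 FPKM at 20 µM, against 20.3, 42.4 and 26.3 FPKM at 2 µM (log2 difference 2.81, SE 0.18, adjusted p = 2.6e-09). The 3 were higher in all libraries at 20 µM. MAP1LC3B, the common marker of autophagosomes, averaged 126 ± 6.85 FPKM at 20 µM and 67.9 ± 3.66 FPKM at 2 µM (log2 difference 0.88). Lysosome genes gave 9 higher and 3 lower of 19 genes tested, with a median log2 difference of 0.18. Cathepsin L (CTSL) averaged 396 ± 11.8 FPKM at 20 µM and 148 ± 1.66 FPKM at 2 µM (log2 difference 1.41), cathepsin D (CTSD) 371 ± 23.2 FPKM at 20 µM and 186 ± 11.3 FPKM at 2 µM (log2 difference 1.00), and the calcium channel MCOLN1 19.1 ± 4.92 FPKM at 20 µM and 6.503 ± 0.704 FPKM at 2 µM (log2 difference 1.39).

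NF-kappaB targets and cytokines were mostly higher, with 16 higher and 1 lower of 21 genes tested, with a median log2 difference of 1.02. With 1 replicate left out, 1 to 3 were called lower. NFKBIA, which encodes the inhibitor of NF-kappaB, had 379, 256 and 291 FPKM at 20 µM, against 53.4, 45.9 and 112 FPKM at 2 µM (log2 difference 2.21, SE 0.27, adjusted p = 3.6e-06). RELB had 44.2, 41.5 and 45.3 FPKM at 20 µM, against 4.86, 7.71 and 4.28 FPKM at 2 µM (log2 difference 2.79, SE 0.20, adjusted p = 1.0e-08). TRAF1 had 31.6, 31.8 and 30.3 FPKM at 20 µM, against 2.31, 2.63 and 2.41 FPKM at 2 µM (log2 difference 3.23, SE 0.13, adjusted p = 1.7e-11). The doses did not overlap for these genes. IL32 averaged 16.2 ± 0.9299 FPKM at 20 µM and 2.06 ± 0.172 FPKM at 2 µM (log2 difference 2.49), the chemokine CXCL3 24.8 ± 2.84 FPKM at 20 µM and 4.62 ± 0.713 FPKM at 2 µM (log2 difference 2.20), and the deubiquitinase TNFAIP3 16.3 ± 1.87 FPKM at 20 µM and 4.498 ± 1.702 FPKM at 2 µM (log2 difference 1.69). Interferon-stimulated genes went both ways, with 7 higher and 6 lower of 17 genes tested, with a median log2 difference of -0.06. ISG15 averaged 93.2 ± 4.28 FPKM at 20 µM and 24.2 ± 0.783 FPKM at 2 µM (log2 difference 1.90), IFIT2 47.9 ± 3.202 FPKM at 20 µM and 20.3 ± 1.19 FPKM at 2 µM (log2 difference 1.20), and IFI6 7.22 ± 1.76 FPKM at 20 µM and 25.2 ± 1.42 FPKM at 2 µM (log2 difference -1.69).

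Keratins and epithelial junction genes gave 9 higher and 4 lower of 19 genes tested, with a median log2 difference of 0.19. Desmoplakin (DSP), of desmosomes, had 33.7, 31.4 and 33.95 FPKM at 20 µM, against 5.39, 5.22 and 5.12 FPKM at 2 µM (log2 difference 2.45, SE 0.11, adjusted p = 2.9e-11). The tight junction gene CLDN1 averaged 41.04 ± 5.83 FPKM at 20 µM and 10.7 ± 1.12 FPKM at 2 µM (log2 difference 1.85), and CLDN4 119 ± 4.11 FPKM at 20 µM and 54.9 ± 1.48 FPKM at 2 µM (log2 difference 1.10). KRT18 averaged 224 ± 17.4 FPKM at 20 µM and 331 ± 3.21 FPKM at 2 µM (log2 difference -0.56). Matrix and integrin genes gave 5 higher and 13 lower of 24 genes tested, with a median log2 difference of -0.40. With 1 replicate left out, 2 to 4 were called higher. SPARC, a matrix glycoprotein, had 0.4599, 0.0549 and 0.377 FPKM at 20 µM, against 10.6, 6.19 and 6.68 FPKM at 2 µM (log2 difference -2.75, SE 0.37, adjusted p = 1.1e-05). The collagenase MMP1 averaged 3.02 ± 0.238 FPKM at 20 µM and 24.1 ± 1.499 FPKM at 2 µM (log2 difference -2.64). The integrin ITGB1 averaged 369 ± 23.8 FPKM at 20 µM and 478 ± 4.697 FPKM at 2 µM (log2 difference -0.37). DSP was higher and SPARC and MMP1 lower at 20 µM.

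Long non-coding RNAs gave 11 higher and 3 lower of 17 genes tested, with a median log2 difference of 1.17. GAS5, a host of small nucleolar RNAs and a growth arrest transcript, had 1521, 1521 and 1558 FPKM at 20 µM, against 319, 329 and 289 FPKM at 2 µM (log2 difference 2.29, SE 0.10, adjusted p = 2.2e-11). ZFAS1, another such host, had 1941, 2052 and 2134 FPKM at 20 µM, against 391, 405 and 392 FPKM at 2 µM (log2 difference 2.36, SE 0.05, adjusted p = 8.8e-15). SNHG12 had 289, 268 and 269 FPKM at 20 µM, against 25.6, 25.4 and 29.4 FPKM at 2 µM (log2 difference 3.31, SE 0.09, adjusted p = 8.5e-14). These 3 hosts were higher in every library at 20 µM. PVT1, next to MYC, averaged 412 ± 99.9 FPKM at 20 µM and 77.9 ± 45.9 FPKM at 2 µM (log2 difference 2.60), and NEAT1, the scaffold of paraspeckles, 389 ± 24.1 FPKM at 20 µM and 1173 ± 56.9 FPKM at 2 µM (log2 difference -1.59). Ribosome biogenesis gave 11 higher and 5 lower of 31 genes tested, with a median log2 difference of 0.12. RRP12 and BYSL had log2 differences of 1.82 and 1.32, and nucleolin (NCL) -0.30. NPM1, an abundant nucleolar protein, averaged 3012 ± 139 FPKM at 20 µM and 2771 ± 288 FPKM at 2 µM, and no difference was called (log2 difference 0.12, 95% interval 0.00 to 0.25, adjusted p = 0.062). Proteasome subunits gave 13 higher and 5 lower of 27 genes tested, with a median log2 difference of 0.16. PSMD4 and PSMA2, the ends of that list, had log2 differences of 0.77 and -1.06.

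Genes often used to scale expression were not level between the doses: 3 higher and 8 lower of 13 genes tested, with a median log2 difference of -0.53. HPRT1 averaged 69.02 ± 12.4 FPKM at 20 µM and 173 ± 3.83 FPKM at 2 µM (log2 difference -1.33), B2M 93.5 ± 14.6 FPKM at 20 µM and 164 ± 10.1 FPKM at 2 µM (log2 difference -0.81), and PPIA 326 ± 15.9 FPKM at 20 µM and 391 ± 23.6 FPKM at 2 µM (log2 difference -0.26).

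**Figure D3:**
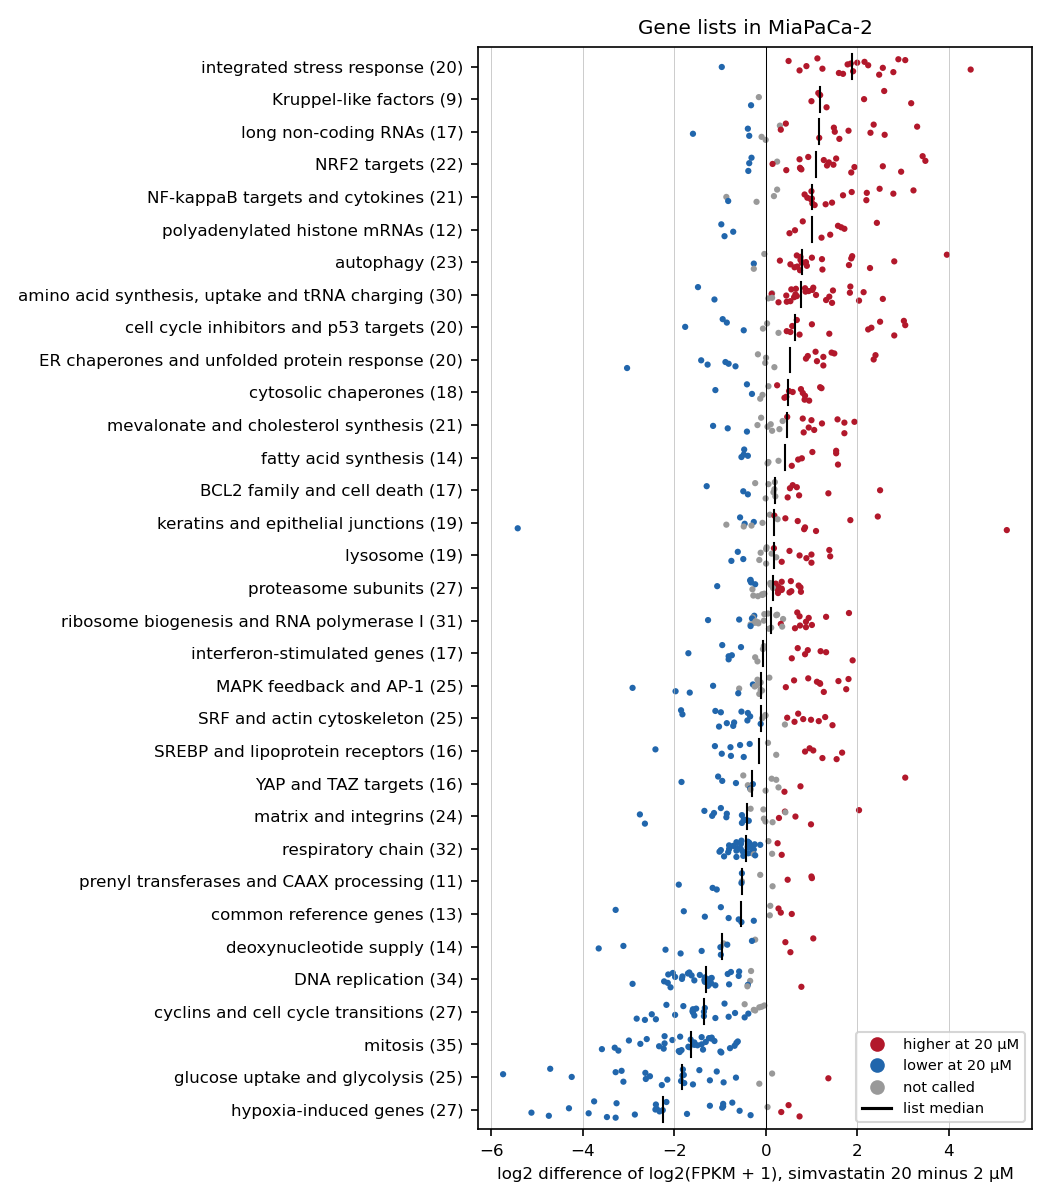
Log2 difference (simvastatin 20 minus 2 µM, on the log2(FPKM + 1) scale) of each tested gene of the gene lists drawn, in MiaPaCa-2, with the number tested in brackets and lists ordered by their median (black bar). Red points are genes called higher at 20 µM, blue points called lower and grey points not called: the integrated stress response has the highest median (1.89) and the low-oxygen genes the lowest (-2.25).

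The dose difference was set against that of the other statins in the same line. Lovastatin is a close relative, from which simvastatin differs by an added methyl group on its ester side chain, and fluvastatin is a synthetic indole compound. The test is of the difference between 2 dose differences, and these comparisons share no library. One column labelled as lovastatin at 20 µM was a weighted sum of other columns and was left out, so that group has 2 libraries. Of the genes tested in each comparison, 70.1% were called between the doses of simvastatin, 57.0% for lovastatin and 63.6% for fluvastatin. The simvastatin dose difference differed from that of lovastatin in 1983 of 8485 genes (23.4%), with 905 above it (10.7%) and 1078 below (12.7%). It differed from that of fluvastatin in 3504 of 8503 genes (41.2%), with 1724 above (20.3%) and 1780 below (20.9%). Genes called in opposite directions numbered 161 against lovastatin and 506 against fluvastatin. With lovastatin replicate 1 or 2 at 20 µM left out, 766 and 630 were above lovastatin and 905 and 785 below. In these counts, here and for the lists below, the 1 library left is assumed to vary like the other groups.

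Most stress response genes were above both other statins. The dose difference was above that of lovastatin in 16 of the 21 genes in the table and called below in none. With either lovastatin library at 20 µM left out, 15 and 14 were above. ATF4 had a log2 difference of 2.00 with simvastatin and 1.06 with lovastatin (difference 0.94, SE 0.06, adjusted p = 1.8e-07). TRIB3 had a log2 difference of 3.05 with simvastatin and 1.64 with lovastatin (difference 1.41, SE 0.13, adjusted p = 2.0e-06). Against fluvastatin, 18 of the 21 were above and none was called below. ATF4 had a log2 difference of 0.49 with fluvastatin (difference 1.51, SE 0.06, adjusted p = 1.6e-10). In the amino acid and tRNA list, 18 of 30 genes were above lovastatin, 18 and 15 with either lovastatin library left out, and 25 of 30 were above fluvastatin. SLC3A2, the partner of several amino acid transporters, had a log2 difference of 2.04 with simvastatin, 0.87 with lovastatin (difference 1.18, SE 0.15, adjusted p = 6.2e-05) and 1.06 with fluvastatin (difference 0.99, SE 0.14, adjusted p = 7.2e-05).

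Few mitosis genes were called different from lovastatin, and most were from fluvastatin. Of the 35, 2 were above lovastatin and 1 below, with up to 6 above when 1 lovastatin library was left out. Against fluvastatin 24 were above and none was called below. The median log2 difference of the list was -1.64 with simvastatin, -1.79 with lovastatin and -2.75 with fluvastatin. TOP2A had a log2 difference of -2.74 with simvastatin and -2.57 with lovastatin, and these were not called different (difference -0.17, 95% interval -0.52 to 0.18, adjusted p = 0.48). PLK1 had a log2 difference of -1.84 with simvastatin and -3.19 with fluvastatin (difference 1.35, SE 0.32, adjusted p = 0.0036).

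The median of the NF-kappaB targets lay between those of the other two statins. The targets were below lovastatin in 8 of 24 genes, 7 and 8 with either lovastatin library left out, and above fluvastatin in 14 of 24. Their median log2 difference was 1.02 with simvastatin, 2.05 with lovastatin and 0.08 with fluvastatin. Each median is over the list genes tested in its own comparison, 21 of the 24 for simvastatin, so the genes can differ between the statins. NFKBIA had a log2 difference of 2.21 with simvastatin and 3.29 with lovastatin, which were not called different (difference -1.08, 95% interval -1.94 to -0.22, adjusted p = 0.068), and 0.66 with fluvastatin (difference 1.55, SE 0.38, adjusted p = 0.0049). Matrix and integrin genes were below lovastatin in 12 of 28, or 10 and 9 with either lovastatin library left out, and called above in none. The respiratory chain was below lovastatin in 16 of 32, or 13 with either library left out, and below fluvastatin in 18 of 32.

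Single genes of the drug pathway, of its GTPase clients and of growth arrest were set against both statins as well. HMGCS1 had a log2 difference of 1.72 with simvastatin, 1.36 with lovastatin (difference 0.36, 95% interval -0.01 to 0.73, adjusted p = 0.15) and 0.64 with fluvastatin (difference 1.08, 95% interval 0.73 to 1.43, adjusted p = 1.0e-04). RHOB had a log2 difference of 3.66 with simvastatin, 3.41 with lovastatin (difference 0.25, 95% interval 0.07 to 0.43, adjusted p = 0.041) and 3.72 with fluvastatin (difference -0.05, 95% interval -0.22 to 0.11, adjusted p = 0.61). KLF2 had a log2 difference of 2.15 with simvastatin, 2.15 with lovastatin (difference 0.00, 95% interval -0.22 to 0.23, adjusted p = 0.99) and 2.34 with fluvastatin (difference -0.18, 95% interval -0.40 to 0.03, adjusted p = 0.15). CDKN1A had a log2 difference of 2.31 with simvastatin, 2.57 with lovastatin (difference -0.27, 95% interval -0.58 to 0.04, adjusted p = 0.21) and 2.29 with fluvastatin (difference 0.01, 95% interval -0.28 to 0.31, adjusted p = 0.94). GAS5 rose more with simvastatin, by 2.29, against 1.15 with lovastatin (difference 1.15, SE 0.15, adjusted p = 6.1e-05) and 0.70 with fluvastatin (difference 1.59, SE 0.14, adjusted p = 5.2e-07). KRT16 rose less than with fluvastatin, by 5.27 with simvastatin and 6.44 with fluvastatin (difference -1.17, SE 0.17, adjusted p = 8.0e-05).

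The same 2 doses of simvastatin in PANC-1 gave many other differences. In PANC-1, 62.2% of the genes tested were called between the doses. The dose difference in MiaPaCa-2 differed from that in PANC-1 for 5165 of 8738 genes (59.1%), with 2619 above (30.0%) and 2546 below (29.1%), and 1022 genes were called in opposite directions. One PANC-1 library, replicate 3 at 20 µM, stood apart from its group, with correlations of 0.968 and 0.9683 against 0.9888 between the other two. Without it 5049 genes differed, 2521 above and 2528 below.

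The mevalonate list was below PANC-1 in 14 of 21 genes and called above in none, and it was below in 15 without the PANC-1 library that stood apart. Its median log2 difference was 0.47 in MiaPaCa-2 and 1.68 in PANC-1. HMGCS1 had a log2 difference of 1.72 in MiaPaCa-2 and 2.41 in PANC-1 (difference -0.69, SE 0.13, adjusted p = 5.9e-05). NF-kappaB targets differed the other way. They were above PANC-1 in 22 of 24 genes, with and without that library. Only 21 of the 24 passed the filter in the MiaPaCa-2 simvastatin libraries. The rest were low in MiaPaCa-2, where they could fall little on this scale. The part of these low levels in the count was not tested. Their median log2 difference was 1.02 in MiaPaCa-2 and -1.96 in PANC-1, each over the genes tested in that line. NFKBIA had a log2 difference of 2.21 in MiaPaCa-2 and -1.45 in PANC-1 (difference 3.66, SE 0.42, adjusted p = 4.8e-08).

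Glycolysis and low-oxygen genes mostly had dose differences below those in PANC-1. Some of them were low in PANC-1 at 2 µM, where they could fall little on this scale. SLC2A3 and PPFIA4 averaged 2.12 and 3.56 FPKM there, against 99.6 and 69.7 FPKM at 2 µM in MiaPaCa-2. P4HA1 and ADM were not low in PANC-1, with 89 and 109.6 FPKM at 2 µM. The part of these levels in the list counts was not tested. Of the glycolysis list 18 of 26 were below, and 18 without the library that stood apart, with median log2 differences of -1.82 in MiaPaCa-2 and -0.73 in PANC-1. Of the low-oxygen list 19 of 28 were below, and 18 without that library, with median log2 differences of -2.25 in MiaPaCa-2 and -0.45 in PANC-1. PGK1 had a log2 difference of -3.28 in MiaPaCa-2 and -1.77 in PANC-1 (difference -1.50, SE 0.09, adjusted p = 4.7e-14). LDHA had a log2 difference of -2.62 in MiaPaCa-2 and -2.34 in PANC-1, which were not called different (difference -0.27, 95% interval -1.20 to 0.66, adjusted p = 0.62). Of the mitosis list 20 of 35 were above PANC-1, with and without that library, and 2 were below. CDKN1A had a log2 difference of 2.31 in MiaPaCa-2 and 0.38 in PANC-1 (difference 1.93, SE 0.11, adjusted p = 7.3e-14). At 2 µM CDKN1A averaged 6.469 FPKM in MiaPaCa-2 and 32.75 FPKM in PANC-1, and at 20 µM 35.97 and 42.89 FPKM. Stress response genes went both ways: of the 21 in the table, 10 were above PANC-1 and 4 below, or 10 and 5 without that library. ATF4 had a log2 difference of 2.00 in MiaPaCa-2 and 1.18 in PANC-1 (difference 0.82, SE 0.07, adjusted p = 1.9e-10). DDIT3 was below, with 1.69 in MiaPaCa-2 and 2.62 in PANC-1 (difference -0.93, SE 0.11, adjusted p = 6.2e-08).

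**Figure D4:**
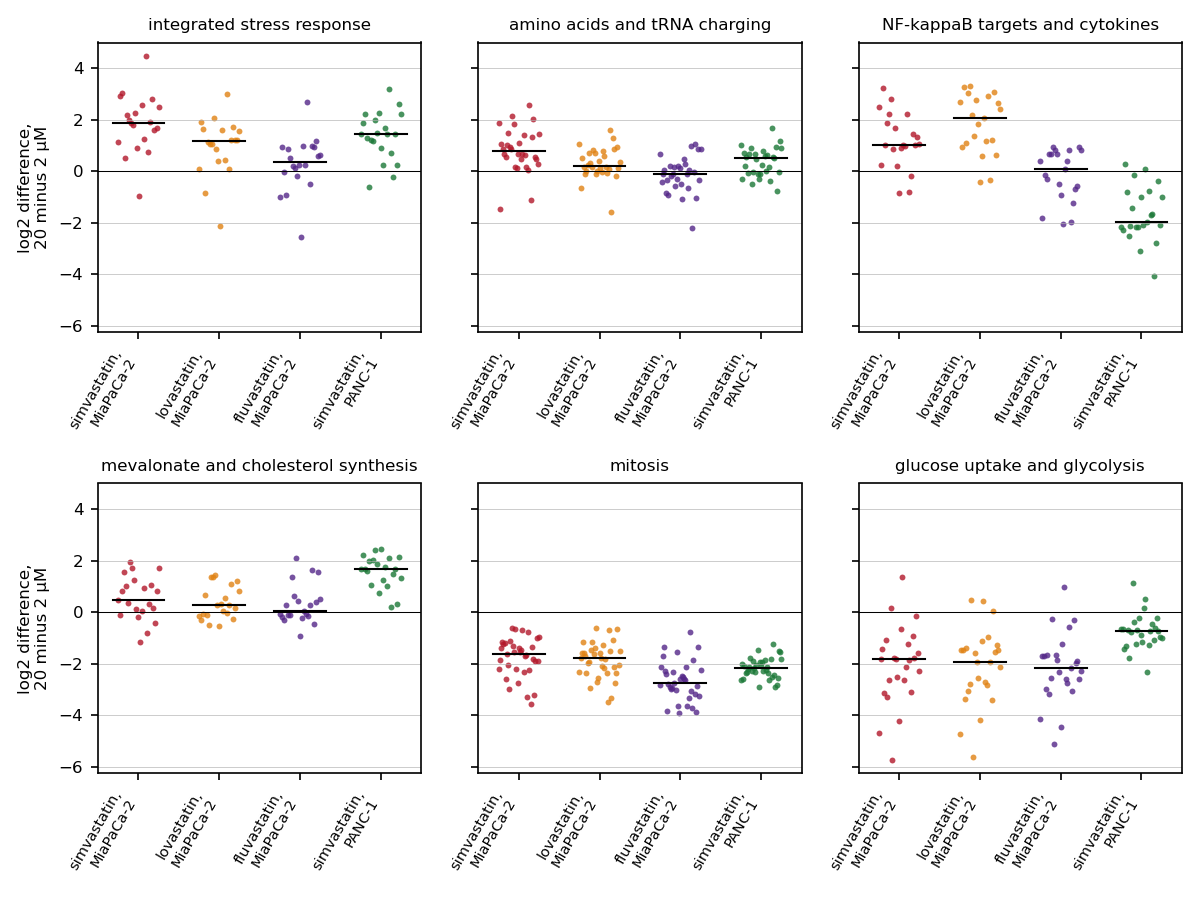
Log2 difference between 20 and 2 µM of each gene of 6 lists for simvastatin in MiaPaCa-2, lovastatin in MiaPaCa-2, fluvastatin in MiaPaCa-2 and simvastatin in PANC-1. Points are the genes tested in each comparison, which can differ between comparisons, and black bars are list medians. The median of the NF-kappaB list is 1.02 for simvastatin in MiaPaCa-2, 2.05 for lovastatin, 0.08 for fluvastatin and -1.96 in PANC-1.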

How the data were processed

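The 42 libraries were assigned to groups through their titles. TopHat2 2.0.13, Cufflinks 1.1, Cuffdiff and the build hg19 are named, per the submitters' processing notes. The authors deposited a single table with log2 FPKM for 8738 genes. Since every value exceeds 0, a pseudocount of 1 was assumed, and FPKM was computed back on that basis. No label states the pseudocount, the scaling or how the genes were chosen. In 40 of the 42 columns, at least 97.1% of values recur in 5 or more columns, as after scaling to one shared distribution. Levels there follow ranks, and ties and an SD of 0 occur. The other 2 columns are the weighted sums described below. Depth is unknown, and no interval for counting error is given.

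All 42 columns matched a sample. MiaPaCa-2 control 3 and lovastatin 20 µM 3 equalled weighted sums of other columns, and these 2 were not used as replicates; neither belongs to the simvastatin groups. Genes with at least 1 FPKM in at least 3 of the 6 libraries were tested (for a difference between dose comparisons, in 3 libraries of its 4 groups). One model with a mean for each group was fitted to the 17 independent MiaPaCa-2 statin libraries (limma 3.58.1, R 4.3.3, eBayes with trend and robust steps), and for PANC-1 to the statin libraries of both lines. P-values are two-sided, with Benjamini-Hochberg adjustment over all genes tested. A call is an adjusted p under 0.05, and 95% intervals are unadjusted. Replicate numbers do not pair the libraries. Alternatives were another pseudocount, no filter, quantile normalization, a replicate block, other library sets, no trend and robust steps, and leaving out each replicate.

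Members and lists were chosen with earlier results of these data known. Named genes were the 12 largest rises and falls among called genes without overlap and with at least 5 FPKM, the 5 most abundant per direction at 2-fold or more, up to 5 called genes plus key genes of each list, all markers, 3 genes per direction for each difference, and genes with a printed promoter. Genes named outside this rule are marked in the text, and some genes and 1 list are not reported here. The 7 symbols held by 2 IDs were kept apart. Reads of near-identical or overlapping genes and pseudogenes may be split between them. Promoters are from RefSeq (GRCh38.p14), matched by symbol or older symbol, with the first listed window per gene.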

Additional observations from a re-analysis of the deposited data

Results flagged for a closer look

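Some genes had a dose difference with simvastatin in MiaPaCa-2 that differed from that of another dose comparison, by limma's test of the difference itself. The 3 largest in each direction and comparison, among genes that average at least 5 FPKM in a group, are given, with their values in both where these are not above. A positive difference means that simvastatin in MiaPaCa-2 is above.

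Against lovastatin, FAM25A differed by 3.73 on the log2 scale, and it had 4.74 and 11.6 FPKM at 20 µM, against 0.0952, 1.32 and 1.75 FPKM at 2 µM with lovastatin. HMOX1 differed by 2.74, with 343, 350.1 and 351 FPKM at 20 µM, against 29.7, 30.5 and 30.3 FPKM at 2 µM for simvastatin and 53.7 and 52.3 FPKM at 20 µM, against 32.3, 30.1 and 31.3 FPKM at 2 µM for lovastatin. UCA1 (ENSG00000273782, 1 of 2 IDs with this symbol, among the top 3 genes of each simvastatin library) differed by 2.87, with 5950.4, 5950.4 and 5243 FPKM at 20 µM, against 5950.4, 5243 and 5950.4 FPKM at 2 µM, for simvastatin and 476 and 1719 FPKM at 20 µM, against 5950.4, 6990.2 and 6990.2 FPKM at 2 µM for lovastatin. SNHG22 differed by -3.73, with 2.44, 2.26 and 2.25 FPKM at 20 µM, against 6.16, 1.64 and 5.49 FPKM at 2 µM for simvastatin and 28.6 and 24.2 FPKM at 20 µM, against 1.51, 2.03 and 2.901 FPKM at 2 µM for lovastatin. PTGDS, a prostaglandin D synthase, differed by -3.16, with 22.99, 20.1 and 28.1 FPKM at 20 µM, against 60.5, 49.8 and 43.6 FPKM at 2 µM for simvastatin and 201 and 194 FPKM at 20 µM, against 44.1, 44.6 and 49.9 FPKM at 2 µM for lovastatin. UBE3D differed by -3.10, with 5.62, 5.76 and 3.903 FPKM at 20 µM, against 4.62, 6.7 and 4.02 FPKM at 2 µM for simvastatin and 43.3 and 56.8 FPKM at 20 µM, against 5.27, 3.84 and 5.77 FPKM at 2 µM for lovastatin.

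Against fluvastatin, FAM25A differed by 4.38, and it had 2.08, 2.13 and 4.57 FPKM at 20 µM, against 1.19, 0.0376 and 0.0432 FPKM at 2 µM with fluvastatin. LMO4 differed by 3.98, with 39.2, 35.6 and 39.2 FPKM at 20 µM, against 2.16, 2.27 and 2.43 FPKM at 2 µM for simvastatin and 4.36, 4.24 and 4.28 FPKM at 20 µM, against 3.88, 8.35 and 6.66 FPKM at 2 µM for fluvastatin. PPARG, a nuclear receptor of fat storage, differed by 3.56, with 17.3, 15.1 and 13.4 FPKM at 20 µM, against 1.68, 0.804 and 1.17 FPKM at 2 µM for simvastatin and 1.87, 2.71 and 3.04 FPKM at 20 µM, against 1.802, 7.15 and 6.67 FPKM at 2 µM for fluvastatin. PTGDS differed by -4.59, and fluvastatin gave 529, 551 and 558 FPKM at 20 µM, against 45.2, 44.5 and 51.4 FPKM at 2 µM. IZUMO4 differed by -3.37, with 6.18, 7.48 and 9.37 FPKM at 20 µM, against 4.06, 5.47 and 2.93 FPKM at 2 µM for simvastatin and 96.6, 70.8 and 72.2 FPKM at 20 µM, against 2.92, 3.602 and 4.23 FPKM at 2 µM for fluvastatin. EMCN differed by -3.22, with 2.37, 7.18 and 8.77 FPKM at 20 µM, against 25.7, 31.8 and 10.6 FPKM at 2 µM for simvastatin and 22.5, 29.01 and 43.7 FPKM at 20 µM, against 10.1, 13 and 8.49 FPKM at 2 µM for fluvastatin.

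Against simvastatin in PANC-1, FAM25A differed by 5.23, IL32 by 4.66 and CXCL2 by 4.41. FAM25A had 0.505, 0.00353 and 4.87 FPKM at 20 µM, against 0.00415, 0.346 and 0.677 FPKM at 2 µM in PANC-1, where the highest value at 20 µM is that of replicate 3, the library that stood apart. IL32 had 17.2, 15.97 and 15.4 FPKM at 20 µM, against 2.25, 1.91 and 2.01 FPKM at 2 µM in MiaPaCa-2 and 7.07, 10.8 and 5.499 FPKM at 20 µM, against 33.4, 36.7 and 42.4 FPKM at 2 µM in PANC-1. CXCL2 had 35.9, 33.5 and 38.4 FPKM at 20 µM, against 7.61, 8.47 and 11.2 FPKM at 2 µM in MiaPaCa-2 and 0.0853, 0.313 and 1.502 FPKM at 20 µM, against 10.6, 6.98 and 6.37 FPKM at 2 µM in PANC-1. ALDOC differed by -5.37, and PANC-1 had 12.99, 12.3 and 15.4 FPKM at 20 µM, against 13.9, 15.7 and 25.3 FPKM at 2 µM. MUC1 differed by -4.65, and PANC-1 had 28.3, 37.1 and 23.4 FPKM at 20 µM, against 23.4, 72.3 and 75.6 FPKM at 2 µM. SNCG, gamma-synuclein, differed by -4.24, with 5.23, 5.92 and 6.495 FPKM at 20 µM, against 94, 90.05 and 92.8 FPKM at 2 µM in MiaPaCa-2 and 6.13, 6.68 and 3.91 FPKM at 20 µM, against 2.85, 6.13 and 2.62 FPKM at 2 µM in PANC-1.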

How the results depend on the processing

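The count of genes called between the doses, 5908, was 5496 to 5579 with a replicate left out and 5757 to 6020 under the other alternatives. Of the calls, 5614 were also made with the 2 dose groups alone. Counts differing from lovastatin, fluvastatin and PANC-1 were 1415 to 2399, 3222 to 3770 and 4594 to 5248. No direction reversed. Of 3758 values of named genes, 3728 kept their side of the threshold, 23 lost a call and 7 gained one, and CYR61, PTPN14, ZEB1, LAMP1, CD14, VIM and IZUMO4 were the 7 that lost the dose call somewhere.

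Small list counts moved. Respiratory chain genes called higher, 2, were 1 with a pseudocount of 0.1, no filter, the replicate block, or no trend and robust steps, and 1 to 2 with a replicate left out. Autophagy genes called lower, 1, were 0 under quantile normalization, the replicate block, the compared groups alone, or no trend and robust steps, and 0 to 1 with a replicate left out. NF-kappaB genes called lower, 1, were 2 under the replicate block and the compared groups alone, and 1 to 3 with a replicate left out. Matrix genes called higher, 5, were 2 to 4 with one left out. The causes were not tested.

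Same-numbered libraries did not deviate together (correlations of -0.024, 0.003 and -0.022), so the replicate numbers give no pairing. With the replicate block 5877 genes were called, 5824 of them shared with the 5908.

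Limits are the unknown depth, the unstated scaling and choice of genes, 3 libraries a dose that may not be separate cultures, and the 2 libraries of lovastatin at 20 µM. Depth gives no floor for genes at the lowest listed value. Quantile normalization moved the median of all genes to 0.05. It is a weak check, since the values already lie close to one distribution.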

Other observations

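Gene families were also counted by the letters of their symbols, a grouping made after the values were seen and so described without a test. The families given here and below were picked from many. Over all genes tested 35.7% were higher and 34.5% lower. Of 10 genes named PRDX that were tested, 4 of them pseudogenes, 9 were lower and 1 higher. Peroxiredoxins remove peroxides. PRDX2 had 95.6, 101 and 91.6 FPKM at 20 µM, against 347, 357 and 340.4 FPKM at 2 µM (log2 difference -1.85), and PRDX3, the mitochondrial form, had 70.9, 74.5 and 78.7 FPKM at 20 µM, against 239, 252 and 221 FPKM at 2 µM (log2 difference -1.65). PRDX5 was the one that was higher, with 181, 176 and 182 FPKM at 20 µM, against 138, 126 and 117 FPKM at 2 µM (log2 difference 0.50). Genes named ANXA, which are annexins apart from 3 pseudogenes of ANXA2 and the receptor gene ANXA2R, gave 9 higher and 2 lower of 12. ANXA1 had 1075, 1086 and 1086 FPKM at 20 µM, against 581, 613 and 591 FPKM at 2 µM (log2 difference 0.86), and ANXA6, the other way, had 72.8, 59.5 and 75.3 FPKM at 20 µM, against 131, 149 and 157 FPKM at 2 µM (log2 difference -1.07).

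Splicing factors of the SRSF family gave 7 lower and 1 higher of 10. SRSF1 had 128, 128 and 128 FPKM at 20 µM, against 220.5, 234 and 223 FPKM at 2 µM (log2 difference -0.81). Zinc finger genes named ZNF gave 72 higher and 35 lower of 167, with a median log2 difference of 0.28. Genes named VPS, most of them of vesicle sorting, gave 11 higher and 1 lower of 21, with a median of 0.35.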
